A study of Mus musculus with 18 samples.

Results

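Hepatocytes of 3 old mice taken 48 h after partial hepatectomy (PH) were compared with hepatocytes of 3 quiescent old mice, which makes 6 of the 18 libraries of the series, chosen by age and time alone and compared over all genes. The mice were wild-type C57BL/6J animals of 24 months, male per the study's methods and taken from an aged colony, that had received no virus, and the regenerating ones had lost 70% of the liver. Young mice of 3 months of the same strain and sex, 3 before PH and 3 at 48 h after it, stand beside them to test where the response of old hepatocytes differed. Per the study's methods the young mice came from Jackson Laboratories, so that age and source of the mice go together. Each library held polyadenylated RNA of freshly isolated cells of 1 mouse, obtained by collagenase perfusion, so that other cell types of the liver were depleted and not removed, and nothing in the labels says whether the quiescent mice had a sham operation or at what hour of the day tissue was taken.

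After PH the remaining hepatocytes leave quiescence, copy their DNA and divide, while the liver keeps making plasma proteins, bile acids and glucose. After the operation, cytokines prime the cells and growth factors acting on EGFR and MET carry them into G1, cyclin D1 and the E2F factors open S phase, and FOXM1 together with the MuvB complex turns on the genes of G2 and mitosis. In aged rodents this response is known to come later and to be smaller, which is the question behind the design.

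The gene counts of a library summed to 17089525 to 23073217 read pairs in old and 19677035 to 20491030 in old regenerating libraries. Pairs that fell in no gene were 2.03% to 3.07% and 3.11% to 3.74%, slightly more after PH, whereas young libraries held 25.2% to 33.9%. The hepatocyte gene Alb, encoding albumin, took 9.15% to 10.9% of the gene counts before and 5.11% to 6.19% after PH, and every hepatocyte marker on a list of 10 was present. Library 1 of the old quiescent group stood apart from the other two in the markers of other cells: the summed level of 12 Kupffer cell and macrophage markers was 154, 729 and 633 CPM in the old and 116, 126 and 42.3 CPM in the old regenerating libraries (CPM are counts scaled to a common library size with TMM factors, always given in the order of replicates 1, 2 and 3). Endothelial markers summed to 136, 377 and 203 CPM before and 74.8, 69.1 and 102 CPM after PH. None of these markers was at 0 in all 6 libraries, and 11 of 12 in each list were called lower after PH. In some of them Old replicate 1 lay within the range of the regenerating libraries. Examples are Cd68 (2.15 against 1.17 to 2.98 CPM), Cd5l (24.9 against 7.98 to 26.9 CPM) and the endothelial Cdh5 (5.51 against 4.37 to 5.68 CPM). Marco of macrophages overlapped as well (5.03, 17.1 and 2.49 CPM, then 9.64, 22.1 and 3.82 CPM). In such samples fewer cells of a type and less RNA per cell cannot be told apart.

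Of 14554 genes that passed a filter on low counts, 3269 were higher and 2197 lower in old regenerating than in old hepatocytes at an adjusted p under 0.05 (edgeR quasi-likelihood test, Benjamini-Hochberg), so that 37.6% of all genes were called, 22.5% higher and 15.1% lower. The median log2 fold change of all genes was 0.08. The libraries of the groups did not overlap in 6206 genes (42.6%). Under upper-quartile scaling 2178 genes were higher and 3140 lower, so the balance of the directions depended on the scaling, and the log2 fold changes below stand on TMM. Of the genes higher in old hepatocytes, 1835 were also higher in young ones after PH, which is 56.1% of the old and 70.7% of the young list. Among the lower genes 1215 were shared, 55.3% of the old and 50.9% of the young list.

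Genes of mitosis rose by far the most. Among protein-coding genes with a mean of at least 10 CPM in the higher group and no overlap, the 12 largest rises ran from 6.65 (Cenpf, a kinetochore protein) to 8.81 (Ttk). Of 73 tested genes of mitosis and cytokinesis, 72 rose and 0 fell, at a median log2 fold change of 5.30, and all 15 tested S, G2 and M phase cyclins and their kinases rose, at a median of 3.67. Cdc20, which activates the anaphase-promoting complex, read 0.658, 1.72 and 1.97 CPM in old and 131, 209 and 254 CPM in old regenerating hepatocytes. On the log2 scale the change was 7.09, with an SE of 0.471 and an adjusted p of 1.71e-07. Ccnb1, encoding cyclin B1, read 0.479, 1.78 and 1.91 CPM before and 92.4, 120.0 and 114 CPM after PH (6.29, SE 0.381, adjusted p 7.11e-08). In both genes the lowest regenerating library lay far above the highest quiescent one, and library 1 of the quiescent group was the lowest of all.

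To show what the promoters of a mitotic gene and a gene of G1 carry, RefSeq's windows of 250 bases before to 50 after the start (GRCm38.p6) were read for 3 mitotic genes and for Cdt1, which loads the replicative helicase in G1. Capitals mark every match, on either strand, to the CHR word bound by the MuvB complex (TTTGAA), to the NF-Y word (CCAAT) and to 3 E2F words (TTTGGCGC, TTTCCCGC and TTTCGCGC), and no match overlapped another in these windows. Cdc20 lies at chr4:118437294-118437593, Ccnb2 (cyclin B2) at chr9:70421505-70421804 and Cdk1 (the mitotic kinase) at chr10:69352863-69353162, all on the minus strand, and Cdt1 at chr8:122567765-122568064 on the plus strand.
Cdc20: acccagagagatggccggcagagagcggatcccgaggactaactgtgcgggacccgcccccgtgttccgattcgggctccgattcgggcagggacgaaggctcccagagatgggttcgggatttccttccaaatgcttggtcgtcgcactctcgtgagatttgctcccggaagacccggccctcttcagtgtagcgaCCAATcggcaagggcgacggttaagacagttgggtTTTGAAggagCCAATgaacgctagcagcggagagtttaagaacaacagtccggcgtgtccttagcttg
Ccnb2: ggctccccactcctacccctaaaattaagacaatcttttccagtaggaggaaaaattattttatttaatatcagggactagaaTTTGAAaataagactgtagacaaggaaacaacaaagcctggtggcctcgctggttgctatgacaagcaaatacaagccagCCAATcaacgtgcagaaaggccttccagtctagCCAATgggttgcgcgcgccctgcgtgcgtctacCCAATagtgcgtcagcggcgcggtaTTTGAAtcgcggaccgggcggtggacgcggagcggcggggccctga
Cdk1: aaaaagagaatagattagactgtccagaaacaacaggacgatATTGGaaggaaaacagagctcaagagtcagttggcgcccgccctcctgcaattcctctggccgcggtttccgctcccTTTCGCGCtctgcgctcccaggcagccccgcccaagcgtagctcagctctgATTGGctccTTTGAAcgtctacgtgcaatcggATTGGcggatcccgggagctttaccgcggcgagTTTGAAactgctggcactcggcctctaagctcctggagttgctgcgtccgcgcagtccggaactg
Cdt1: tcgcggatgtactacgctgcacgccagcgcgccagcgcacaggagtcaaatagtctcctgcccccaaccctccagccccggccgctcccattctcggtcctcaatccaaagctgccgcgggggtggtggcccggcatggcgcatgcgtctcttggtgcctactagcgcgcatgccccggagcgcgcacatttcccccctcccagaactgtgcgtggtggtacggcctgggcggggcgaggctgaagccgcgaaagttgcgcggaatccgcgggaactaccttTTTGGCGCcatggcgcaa
Cdc20 held 1 CHR word and 2 NF-Y words, Ccnb2 2 and 3, Cdk1 2 and 3 beside 1 E2F word, and Cdt1 a single E2F word, downstream of its start. Among 73 windows of 65 mitosis genes that RefSeq matched, the CHR word was found in 67.1% and the NF-Y word in 69.9%, and 50.7% held both, against 12.7%, 37.5% and 4.99% of the 14016 windows of tested genes and 17.9%, 37.4% and 6.95% of all 32851 windows. Of 54 windows of 43 DNA replication genes, 31.5% held an E2F word and 11.1% the CHR word, against 3.17% and 12.7% of the windows of tested genes and 1.84% and 17.9% of all windows, so that the share with the CHR word was near that of tested genes. The NF-Y word was also found in 57.4% of the windows of DNA replication genes. It was in 61.3% of those of homologous recombination and Fanconi genes and in 51.7% of those of plasma carrier and secreted proteins. A raised share of the NF-Y word was thus not particular to mitosis genes. A match is a stretch of letters and was not tested for binding.

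Foxm1, the transcription factor of the mitotic program, read 0.12, 0.793 and 0.984 CPM in old and 19.7, 23.9 and 26.7 CPM in old regenerating hepatocytes (5.20, SE 0.364, adjusted p 2.56e-07). Cdk1 read 0.539, 1.32 and 2.02 CPM before and 75.1, 91.8 and 122 CPM after PH (6.21, SE 0.350). Mki67, the antigen by which dividing cells are stained, read 0.598, 3.31 and 3.18 CPM and then 110.0, 135 and 159 CPM (5.84, SE 0.40). In these 3 genes the groups lay far apart, as did Ccnb2 (6.86), Plk1 (a kinase of mitotic entry, 6.47), Ccna2 (cyclin A2, 6.12) and Top2a (topoisomerase II, 4.81). Ttk and Knl1, of the spindle checkpoint and the kinetochore, had the largest of these rises, with 0, 0 and 2 and with 0, 1 and 2 read pairs in the old libraries against 425, 471 and 410 and against 291, 441 and 359 in the old regenerating ones. With so few read pairs before PH their fitted changes of 8.81 and 8.02 depend on the prior count and are no bounds. The exception was Pttg1, encoding securin, chosen here after its value was seen, which read 24.2, 15.5 and 20.2 CPM before and 18.3, 20.2 and 21.3 CPM after PH (adjusted p 1.00).

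**Figure D1:**
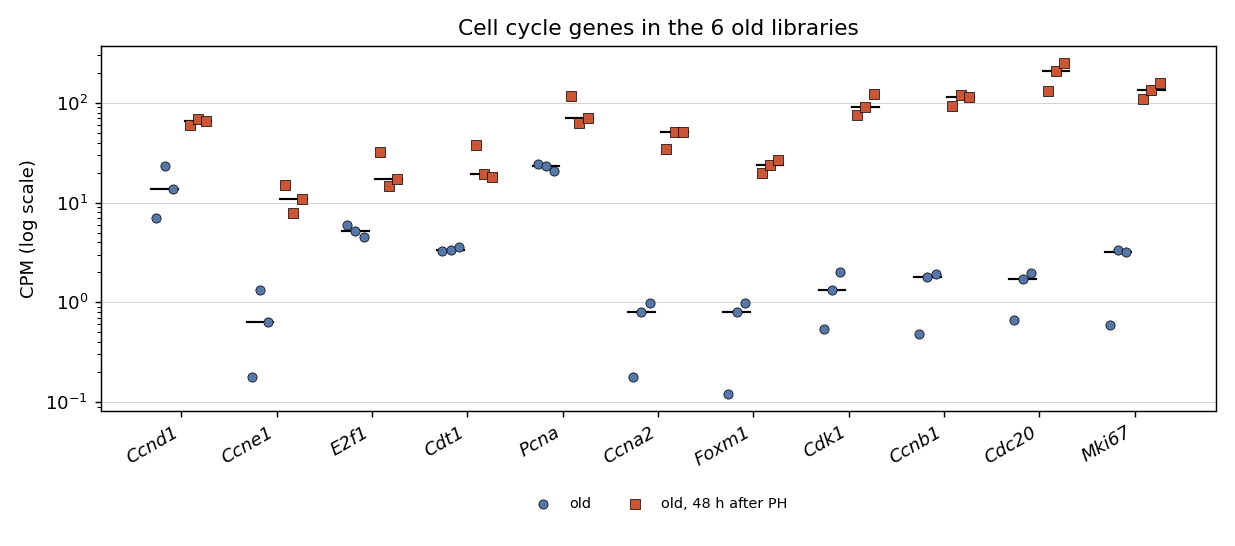
CPM (log axis) of 11 cell cycle genes in each of the 3 old libraries (circles) and the 3 old libraries 48 h after PH (squares), with the median of each group as a bar. Every regenerating library lies above every quiescent one in each gene, by less in Pcna (62.4 to 117 against 20.6 to 24.2 CPM) than in Cdc20, where the gap is largest.

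The genes of G1 and S phase had smaller changes. Ccnd1, encoding cyclin D1, read 6.94, 23.3 and 13.7 CPM in old and 60.0, 68.7 and 66.5 CPM in old regenerating hepatocytes (2.16, SE 0.289, adjusted p 8.2e-05), and Ccne1, encoding cyclin E1, 0.18, 1.32 and 0.636 CPM and then 15.1, 7.91 and 10.8 CPM (4.0, SE 0.416). In all, 10 of 17 tested G1 cyclins and kinases rose, at a median of 0.61, and 1 fell. That was Ccnd2, whose groups overlap (1.68, 7.47 and 7.35 CPM, then 1.61, 2.09 and 2.45 CPM, -1.42, SE 0.419) and whose call was lost with limma-voom (-1.14), in a fit of the 6 old libraries alone (-1.53) and without Old replicates 2 (-1.21) or 3 (-1.22) or Old PH replicate 1 (-1.26). Of 20 E2F, Rb and MuvB genes 14 rose, among them E2f1, an activator of S phase genes (5.92, 5.16 and 4.51 CPM, then 31.9, 14.7 and 17.2 CPM, 2.03, SE 0.257), and only the quiescence factor Rbl2 fell (-0.50, SE 0.137, and -0.34 without a call when Old PH replicate 3 was left out).

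Of 52 DNA replication genes 47 rose, at a median of 2.02. Cdt1 read 3.29, 3.31 and 3.59 CPM before and 37.4, 19.2 and 17.9 CPM after PH (2.87, SE 0.286, adjusted p 6.01e-06), and Pcna, the clamp that holds the polymerase, 24.2, 23.3 and 20.6 CPM and then 117, 62.4 and 70.9 CPM (1.88, SE 0.193). Library 1 of the regenerating group was the highest in both, as it was in E2f1 and Ccne1, while it was the lowest in Cdc20, Ccnb1, Cdk1 and Mki67. The member that fell was Mcm10, which helps to load the polymerase, at 99.7, 52.4 and 73.4 CPM before and 43.7, 26.3 and 26.3 CPM after PH (-1.23, SE 0.288, adjusted p 0.00469).

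Genes that repair and check replicated DNA rose with them: 28 of 34 genes of homologous recombination and the Fanconi pathway (median 2.30, 1 lower) and 13 of 16 genes of the replication checkpoint (median 1.43, 0 lower). Fancd2, encoding a protein that is monoubiquitinated in the Fanconi pathway, went from 0.00, 0.198 and 0.231 CPM to 8.36, 6.44 and 8.37 CPM (5.71, SE 0.408, adjusted p 3.29e-07). Inhibitors of the cell cycle rose at the same time, 5 of 7 tested. Cdkn1a, encoding p21, read 2.81, 13.7 and 10.8 CPM in old and 66.1, 84.3 and 62.1 CPM in old regenerating hepatocytes (2.96, SE 0.365, adjusted p 4.04e-05), and Cdkn3, a phosphatase of CDK1 and CDK2, rose by 7.46 (SE 0.334). Of 33 genes of p53 and its targets 18 rose and 3 fell, at a median of 0.77, among them Mdm2, the ligase that degrades p53 (18.4, 22.7 and 18.5 CPM, then 55.9, 66.3 and 56.0 CPM, 1.58, SE 0.131), and the death receptor gene Tnfrsf10b (3.36, SE 0.527). In each gene named here the regenerating libraries lay above the quiescent ones.

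**Figure D2:**
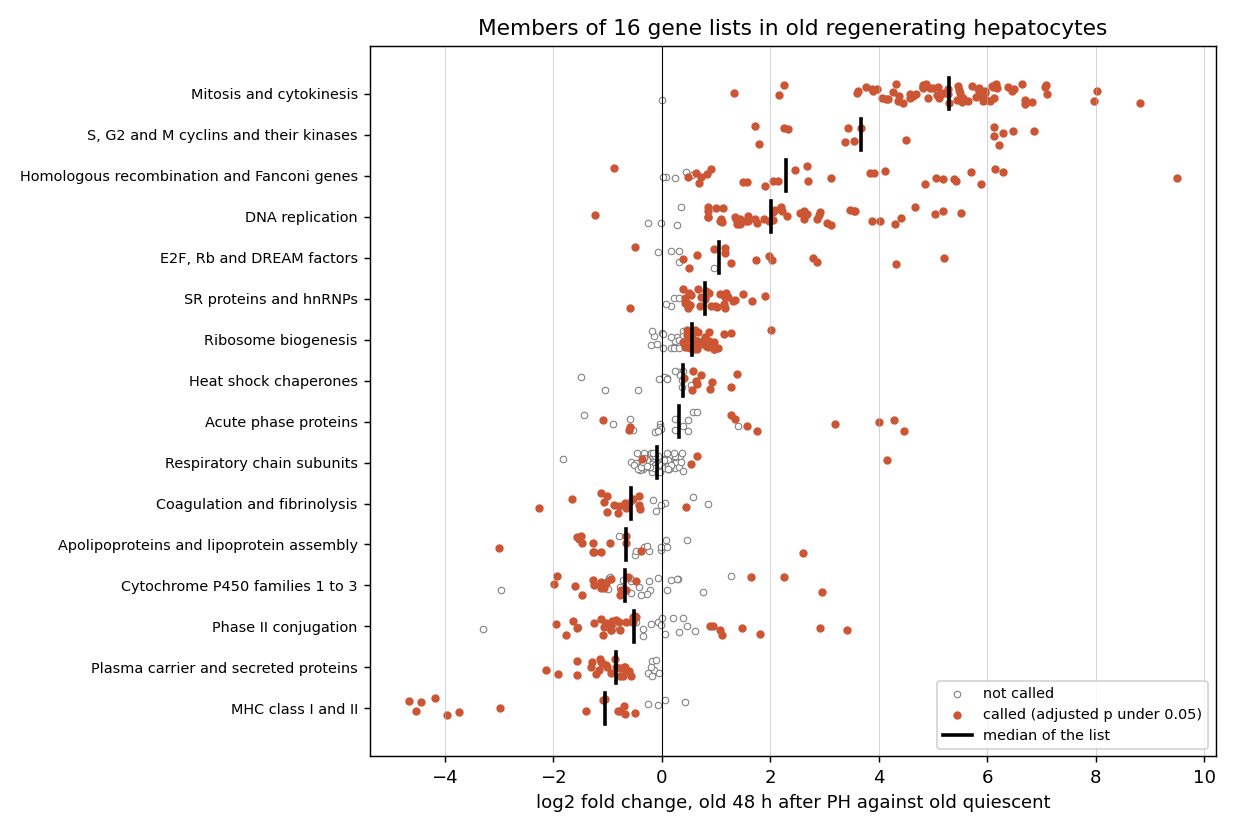
Log2 fold change of old regenerating against old hepatocytes (x axis) for every tested member of 16 gene lists (rows), filled where edgeR's adjusted p was under 0.05, with a bar at the list's median. Cell cycle lists lie to the right, with medians from 1.07 to 5.30. Lists of hepatocyte products lie to the left, with medians from -0.84 to -0.51, except the acute phase proteins, with a median of 0.32. The point farthest right in the repair row, Rmi2, had no read pair in any old library, so its place depends on the prior count.

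Genes of RNA processing and of ribosome assembly rose by small amounts and in large numbers. Of 35 SR proteins and hnRNPs, which bind and splice pre-mRNA, 30 rose and 1 fell, at a median of 0.79. Hnrnpa1 read 31.5, 47.3 and 50.0 CPM before and 112, 139 and 158 CPM after PH (1.66, SE 0.173, adjusted p 8.86e-06), and Srsf3 34.3, 51.7 and 47.6 CPM and then 100, 114 and 127 CPM (1.35, SE 0.156). The member that fell was the cold-inducible Cirbp (-0.58, SE 0.166, and -0.48 without a call when Old PH replicate 2 was left out). Of 54 ribosome biogenesis genes 35 rose and 0 fell (median 0.55), led by Nop58 of the box C/D snoRNP (10.3, 11.6 and 12.7 CPM, then 42.8, 44.3 and 52.7 CPM, 2.01, SE 0.138), and nucleolin, Ncl, rose by 0.81 (SE 0.132). In each of these genes the groups were apart. Among 81 ribosomal proteins of the cytosol 15 rose (18.5%, below the 22.5% of all genes), at a median of 0.32, and this count ran from 1 without Old PH replicate 3 to 34 without Old replicate 1 (2 without Old replicate 2 and 3 without Old replicate 3).

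The cytoskeleton changed with 24 of 43 genes higher and 8 lower. Stmn1, encoding the microtubule regulator stathmin, read 7.18, 7.80 and 5.84 CPM in old and 126, 167 and 183 CPM in old regenerating hepatocytes (4.51, SE 0.211, adjusted p 7.8e-09). The tubulin genes Tubb6 (3.64, SE 0.260) and Tuba1b (2.54, SE 0.182) rose as well, from 9.39 to 16.6 CPM and 17.2 to 25.4 CPM up to 132 to 182 CPM and 106 to 150 CPM. Vim, encoding vimentin of mesenchymal cells and macrophages, fell from 8.38, 16.1 and 13.5 CPM to 6.17, 7.64 and 6.95 CPM (-0.87, SE 0.228, adjusted p 0.00914), together with the macrophage markers above, whose part in it was not tested. Of 24 heat shock chaperones 10 rose and 0 fell, led by Hsp90aa1 (136, 283 and 176 CPM, then 433, 601 and 523 CPM, 1.39, SE 0.236).

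Signals upstream of the cell cycle were mixed at 48 h. Of 24 immediate early transcription factors 10 rose and 2 fell (41.7% and 8.33%, beside 22.5% and 15.1% of all genes). The count of 10 went down to 5 without Old replicate 2. It was 6 without Old PH replicate 1, with limma-voom, with upper-quartile factors or in a fit of the 6 old libraries alone. Egr1 read 106, 31.0 and 40.1 CPM before and 113, 267 and 182 CPM after PH (1.66, SE 0.404, adjusted p 0.00579), Klf6 6.94, 9.39 and 7.41 CPM and then 38.0, 58.4 and 14.5 CPM (2.23, SE 0.385). Myc, which drives cell growth, read 1.80, 2.31 and 6.48 CPM and then 11.2, 8.08 and 12.7 CPM (1.58, SE 0.563, adjusted p 0.0404), and its call was lost with DESeq2 (1.52), limma-voom (1.76), RLE (1.51) or upper-quartile factors (1.39) and without Old replicates 1 (1.17) or 2 (1.29) or Old PH replicates 1 (1.56) or 3 (1.44). Jun overlapped between the groups, at 154, 90.4 and 165 CPM against 202, 239 and 58.0 CPM (0.29, SE 0.375, adjusted p 0.578, but 0.70 and called without Old PH replicate 3). Old PH replicate 3 was the lowest regenerating library in Klf6 and Jun.

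Receptors for growth factors were lower or were not called. Egfr read 896, 961 and 655 CPM in old and 668, 828 and 455 CPM in old regenerating hepatocytes (-0.36, SE 0.237, adjusted p 0.243), and Met, the receptor of hepatocyte growth factor, 94.4, 90.2 and 69.9 CPM and then 78.7, 67.5 and 65.0 CPM (-0.27, SE 0.139, adjusted p 0.144). Both overlapped, and Met was called lower with upper-quartile factors and without Old replicate 3 (-0.45 in each). In all, 9 of 20 EGF, HGF and FGF pathway genes fell and 1 rose (5 lower without Old PH replicate 3). Those that fell included Fgfr2 (23.6, 32.6 and 22.7 CPM, then 11.2, 9.19 and 12.5 CPM, -1.26, SE 0.196) and Hgfac, the protease that activates hepatocyte growth factor (360.0, 285 and 341 CPM, then 142, 104 and 106 CPM, -1.48, SE 0.143, adjusted p 4.48e-06). On the growth hormone axis Ghr, the receptor, fell from 491, 456 and 449 CPM to 253, 239 and 274 CPM (-0.87, SE 0.142, adjusted p 0.0004), while Igf1 overlapped (753, 585 and 528 CPM, then 462, 445 and 727 CPM, -0.19, SE 0.194). The IL6 signal transducer Il6st fell (-0.73, SE 0.170) and the feedback inhibitor Socs3 rose (1.68, SE 0.407), although Old PH replicate 3 at 13.6 CPM lay within the old range of 4.36 to 15 CPM.

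Of 18 tested Hedgehog ligands, receptors and Gli factors 0 rose, 2 fell and 16 were not called, at a median of -0.07, beside 22.5% of all genes higher and 15.1% lower. Ihh, the ligand, read 3.35, 6.94 and 4.80 CPM in old and 3.47, 8.44 and 4.65 CPM in old regenerating hepatocytes (0.14, SE 0.463). Ptch1, the receptor and a target of the pathway, read 21.4, 20.2 and 18.4 CPM and then 21.5, 15.6 and 18.1 CPM (-0.12, SE 0.157), and the transducer Smo 7.00, 11.1 and 11.5 CPM and then 9.17, 12.4 and 16.8 CPM (0.38, SE 0.246). The groups overlapped in all 3 genes. The genes that fell were Gas1, a co-receptor (22.8, 13.7 and 14.9 CPM, then 7.12, 4.57 and 4.36 CPM, -1.68, SE 0.229, adjusted p 9.43e-05), and Hhip, a decoy receptor that also marks stellate cells (0.658, 2.05 and 0.868 CPM, then 0.332, 0.355 and 0.0979 CPM, -2.14, SE 0.532). A list of 12 stellate cell and fibroblast markers summed to 76.7, 168 and 113 CPM before and 76.4, 57.6 and 49.9 CPM after PH, with 5 lower, and its part in the fall of Hhip was not tested. The target Bcl2 stayed under 1 CPM in every old library of both groups (0.78, SE 0.486, adjusted p 0.224). Gli3 had 0, 0 and 2 read pairs in old and 7, 4 and 3 in old regenerating libraries and was below the filter. Of 22 tested genes of the Hippo pathway and YAP targets 7 rose (31.8%), 3 fell (13.6%) and 12 were not called, at a median of -0.02. Among them Yap1, the growth-promoting coactivator, rose from 60.8, 54.7 and 58.0 CPM to 79.9, 77.6 and 83.8 CPM (0.48, SE 0.109, adjusted p 0.00417). Its target Ccn2, also a gene of stellate and endothelial cells, fell from 1.56, 10.4 and 6.02 CPM to 0.855, 1.11 and 0.245 CPM (-3.00, SE 0.606).

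While the cell cycle genes rose, products of the differentiated hepatocyte fell. Of 31 plasma carrier and secreted proteins 24 fell and 0 rose (median -0.84), of 23 coagulation and fibrinolysis genes 15 fell and 1 rose (median -0.57), and of 24 complement genes 14 fell and 0 rose (median -0.72). Alb read 127109, 122660 and 98471 CPM in old and 51395, 44699 and 62067 CPM in old regenerating hepatocytes (-1.14, SE 0.281, adjusted p 0.00633). Ttr, which carries thyroxine and retinol-binding protein, read 11382, 8032 and 7206 CPM and then 2923, 2786 and 5160 CPM (-1.29, SE 0.256), and F2, encoding prothrombin, 3340, 2873 and 2710 CPM and then 1662, 1506 and 1260 CPM (-1.01, SE 0.164). In none of these genes did the groups overlap. Serpina1d, an antitrypsin gene with close paralogs between which reads may be split (-1.56), F7 (factor VII, -1.0), Proc (protein C, -1.11) and complement C2 (-1.28) fell too, whereas C3 overlapped (14517, 10165 and 13718 CPM, then 15740, 12307 and 8742 CPM, -0.06, SE 0.259).

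Of 25 genes of apolipoproteins and lipoprotein assembly 13 fell, at a median of -0.66. Apoa1, the main protein of HDL, read 23936, 19041 and 11731 CPM before and 7762, 6562 and 8617 CPM after PH (-1.25, SE 0.253, adjusted p 0.00176). Apoh fell by 1.56 on the log2 scale (SE 0.185) and Pltp, which transfers phospholipid between lipoproteins, from 29.7, 55.1 and 84.5 CPM to 5.18, 11.6 and 4.26 CPM (-3.00, SE 0.413). The only riser was Apoa4, at 73.7, 85.9 and 75.8 CPM and then 883, 367 and 175 CPM (2.60, SE 0.501, adjusted p 0.00132). The 3 regenerating libraries spanned a range from 175 to 883 CPM, all above the old ones.

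**Figure D3:**
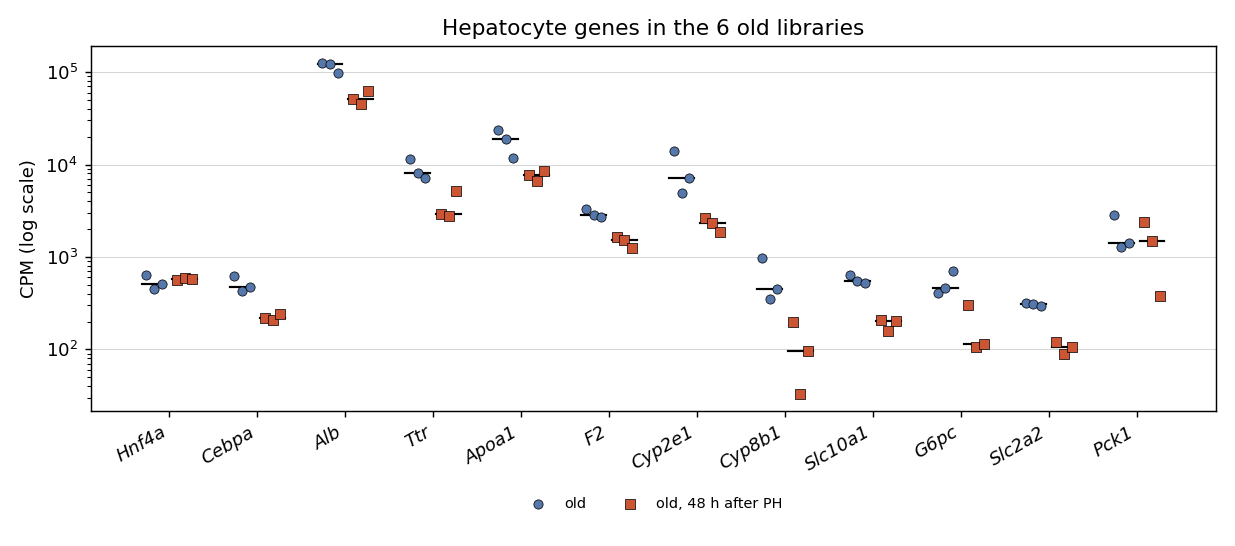
CPM (log axis) of 12 hepatocyte genes in the 3 old libraries (circles) and the 3 old libraries 48 h after PH (squares), with the median of each group as a bar. From Cebpa to Slc2a2 every regenerating library lies below every quiescent one, while Hnf4a (452 to 643 against 568 to 587 CPM) and Pck1 (1281 to 2833 against 379 to 2395 CPM) overlap.

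Genes of detoxification and bile fell in number: 17 of 42 cytochromes P450 of families 1 to 3 (3 higher, median -0.68), 21 of 46 genes of phase II conjugation (8 higher, median -0.51), 12 of 23 transporters of bile, drugs and organic anions (2 higher, median -0.61) and 8 of 18 genes of bile acid synthesis and its control (0 higher, median -0.40). Cyp2e1, which oxidizes ethanol in pericentral cells, read 13889, 4931 and 7141 CPM in old and 2614, 2316 and 1877 CPM in old regenerating hepatocytes (-1.93, SE 0.327, adjusted p 0.000526). Its periportal counterpart Cyp2f2 read 1429, 1418 and 1079 CPM and then 292, 268 and 435 CPM (-1.98, SE 0.215). These genes do not stand for their zones. Of 24 pericentral genes 6 fell and 5 rose, and of 21 periportal genes 8 fell and 0 rose. Cyp8b1, the sterol 12-alpha-hydroxylase that sets the share of cholic acid, read 981, 353 and 452 CPM and then 198, 32.8 and 95.1 CPM (-2.46, SE 0.553). Cyp27a1, of the alternative pathway of bile acid synthesis, fell by 1.61 on the log2 scale (SE 0.157), and Cyp7a1, the rate-limiting enzyme of the classic one, overlapped at 102, 52.4 and 59.5 CPM against 86.5, 67.1 and 144 CPM (0.48, SE 0.366, adjusted p 0.325). Slc10a1, the importer of bile salts (NTCP), read 637, 550.0 and 523 CPM and then 207, 156 and 205 CPM (-1.59, SE 0.164), a larger fall than that of the exporter Abcb11 (695, 889 and 670.0 CPM, then 381, 365 and 494 CPM, -0.86, SE 0.169), although the difference between these 2 genes was not tested. Ugt1a1, which conjugates bilirubin, fell (-1.64, SE 0.244), and the glutathione transferase Gstm3 rose from 61.9, 60.7 and 121 CPM to 281, 667 and 1664 CPM (3.42, SE 0.519, adjusted p 0.000227). The receptor Pigr, which carries IgA into bile, read 2915, 2662 and 2508 CPM before and 1019, 883 and 666 CPM after PH (-1.65, SE 0.197).

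Metabolic genes followed. Of 19 genes of gluconeogenesis and glycogen 9 fell and 3 rose (median -0.37), of 27 of glycolysis 11 fell and 4 rose (median -0.36), of 40 of amino acid catabolism 14 fell and 4 rose (median -0.25), of 31 of fat synthesis 9 fell and 0 rose (median -0.40, with 5 lower when Old PH replicate 1 or 2 was left out) and of 39 of fat oxidation 11 fell and 3 rose (median -0.28). G6pc, which releases free glucose, read 409, 457 and 710.0 CPM in old and 300.0, 107 and 115 CPM in old regenerating hepatocytes (-1.60, SE 0.361, adjusted p 0.00376), and the glucose transporter Slc2a2 320.0, 310.0 and 296 CPM and then 119, 89.6 and 107 CPM (-1.55, SE 0.185). Pck1, of the first committed step of gluconeogenesis, overlapped with a wide spread after PH (2833, 1281 and 1407 CPM, then 2395, 1496 and 379 CPM, -0.37, SE 0.478, adjusted p 0.570). Pklr, the liver's pyruvate kinase, read 114, 138 and 196 CPM and then 32.5, 36.7 and 33.9 CPM (-2.12, SE 0.196). Scd1, the desaturase of fat synthesis, read 1920, 10510 and 12616 CPM and then 341, 1798 and 1897 CPM (-2.63, SE 0.659, adjusted p 0.00689), with the first library of each group several times under the other two. Of the remaining genes Acaa1b of the peroxisome (-2.63, SE 0.385), Tdo2 of tryptophan breakdown (-1.11, SE 0.175) and Csad of taurine synthesis (-2.46, SE 0.366) fell without overlap. Of 28 genes that are higher in male than in female liver 10 fell (35.7%) and 1 rose (6 lower without Old replicate 2 or Old PH replicate 1). Those that fell included Hsd3b5 (158, 235 and 52.4 CPM, then 13.2, 37.0 and 25.7 CPM, -2.55, SE 0.603) and Cyp4a12a (-2.00, SE 0.381). In contrast, of 79 respiratory chain subunits of the nuclear genome 3 rose and 1 fell and 0 of 12 genes of the mitochondrial genome were called. The count of lower subunits went up to 20 under upper-quartile factors, to 12 without Old replicate 2, to 6 without Old replicate 3 or with DESeq2 and to 4 without Old PH replicate 3.

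Most of the transcription factors that define the hepatocyte were not called. Of 29 such factors 2 rose (6.9%, beside 22.5% of all genes) and 5 fell (17.2%, near the 15.1% of all genes). The other 22 were not called, and the median was 0.00. Hnf4a read 643, 452 and 505 CPM in old and 568, 587 and 570.0 CPM in old regenerating hepatocytes (0.11, SE 0.152, adjusted p 0.603), and it turned to -0.06 with upper-quartile factors. Cebpa, which holds hepatocytes out of the cell cycle and drives metabolic genes, read 628, 430.0 and 467 CPM and then 218, 208 and 239 CPM (-1.20, SE 0.212, adjusted p 0.00072). Its relative Cebpb, of the acute phase and of regeneration, read 69.8, 42.7 and 65.4 CPM and then 103, 115 and 89.2 CPM (0.79, SE 0.206, and 0.54 without a call when Old replicate 2 was left out). Groups were apart in both, in opposite directions. Ppara, the regulator of fat oxidation, fell (-1.0, SE 0.304, adjusted p 0.0196) with an overlap between 28.8 CPM in Old replicate 3 and 29.3 CPM in Old PH replicate 1, and its call was lost without Old replicate 1 (-0.56) or Old PH replicate 3 (-0.86).

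Genes of antigen presentation were prominent among the falls, 4 of the 12 largest. Of 19 tested MHC genes 15 fell and 0 rose, at a median of -1.05. H2-Aa, a class II chain, read 22.5, 19 and 55.8 CPM in old and 1.71, 1.24 and 0.881 CPM in old regenerating hepatocytes (-4.66, SE 0.415, adjusted p 2.28e-06), and Cd74, the invariant chain, 53, 81.6 and 211 CPM and then 7.50, 4.75 and 3.62 CPM (-4.44, SE 0.456). H2-Eb1 (-4.52) and H2-Ab1 (-4.18) fell alike. These genes are made by macrophages, dendritic cells and B cells, and the macrophage markers fell in the same libraries: Csf1r, the macrophage growth factor receptor, read 11.3, 73.8 and 93.3 CPM and then 9.88, 8.70 and 2.79 CPM (-3.06, SE 0.588), and Clec4f of Kupffer cells 25.4, 122 and 165 CPM and then 22.1, 15.2 and 7.73 CPM (-2.79, SE 0.528). Old replicate 1 nearly reached the regenerating group in Csf1r and Clec4f, while at 22.5 CPM it lay far above that group in H2-Aa. Of the B and plasma cell markers 4 of 5 tested were lower: Ighm, the heavy chain of IgM, read 14.2, 20.2 and 22 CPM before and 2.37, 3.82 and 1.47 CPM after PH, and Igkc, the kappa light chain, 23.6, 12.4 and 15.7 CPM and then 2.14, 4.0 and 0.0979 CPM. The exception was Sdc1, a marker of plasma cells that hepatocytes also make, at 455, 404 and 477 CPM and then 732, 570 and 742 CPM. The part of either cell type in the fall of class II genes was not tested. Of the class I genes, which hepatocytes also make, H2-K1 read 3377, 2608 and 2612 CPM and then 1094, 1077 and 1111 CPM (-1.39, SE 0.154, adjusted p 1.61e-05), and B2m fell by 1.08 on the log2 scale (SE 0.198).

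Other large falls also lay with markers of these cells. Adgre1 (F4/80, -3.85, SE 0.716, and -3.10 without a call in limma-voom), Itgb2 (a leukocyte integrin, -3.46), Vcam1 (-3.19), C1qa and C1qb (complement C1q of macrophages, -2.78 and -2.77), Cd68 (-2.59, and -2.09 without a call in limma-voom), Siglec1 (-3.52), Tgfb1 (-1.85) and Stab2 of sinusoidal endothelium (-1.51) were lower. In Cd68 the groups overlapped, as Old replicate 1 lay within the regenerating range. Without Old replicate 1 the count of lower MHC genes was again 15, and Csf1r stood at -3.63 and Clec4f at -3.33. Under the same rule as for the rises, the largest fall was that of Rgs16, a regulator of G protein signaling in periportal hepatocytes, at 41.4, 5.55 and 6.07 CPM before and 0.427, 0.711 and 0.196 CPM after PH (-5.28, SE 0.844, adjusted p 0.000332). Old replicate 1 lay well above the other two, and without it the fall was -3.76. Serpinb1a (35.6, 19.9 and 41.7 CPM, then 2.94, 3.46 and 0.587 CPM, -3.78), Cyp4b1 (-3.86) and Igfbp3, a carrier of IGF made by non-parenchymal cells (-3.38), fell as well.

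**Figure D4:**
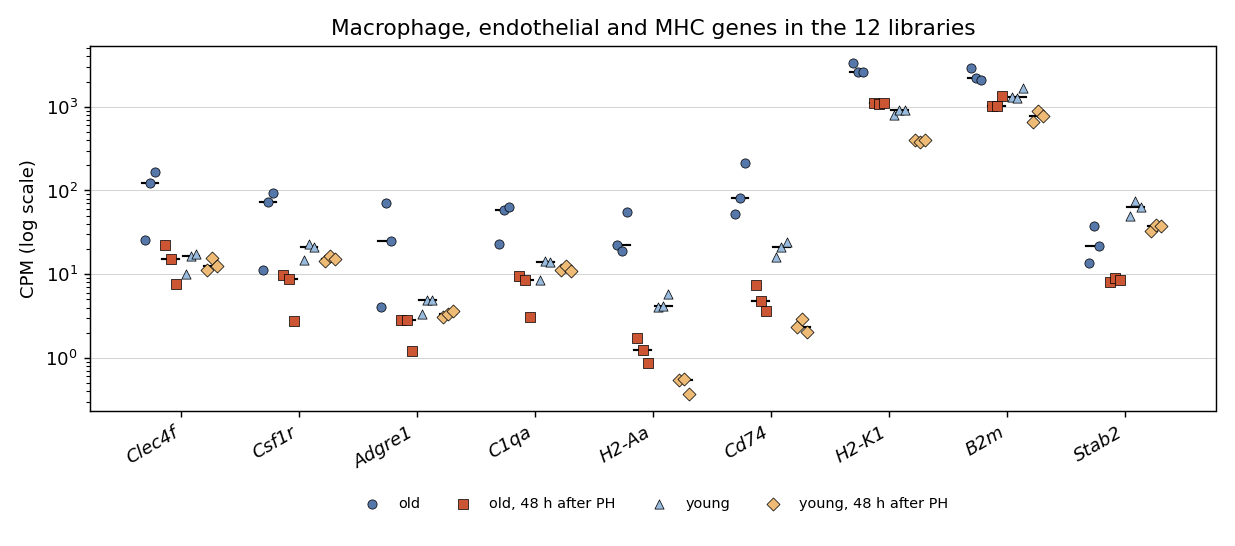
CPM (log axis) of 4 macrophage genes, 4 MHC genes and the endothelial gene Stab2 in the 12 libraries, old (circles), old 48 h after PH (squares), young (triangles) and young 48 h after PH (diamonds), with group medians as bars. In Csf1r, Adgre1 and C1qa old replicates 2 and 3 lie above all other libraries, whereas H2-Aa and Cd74 fall at both ages.

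The acute phase genes that rose in old regenerating hepatocytes were fewer than in young ones, with the difference itself tested gene by gene. Of 28 acute phase genes 8 rose and 3 fell in old mice, at a median of 0.32. These shares, 28.6% and 10.7%, stand beside 22.5% and 15.1% of all genes. In young mice 19 rose and 3 fell (median 1.58), where 17.8% of all genes rose and 16.4% fell. In 6 acute phase genes the responses differed, all lower in old mice (0.983% of all genes had a lower and 2.27% a higher response, 3.26% in all). Lcn2, the iron-binding lipocalin, read 37.2, 26.4 and 74.9 CPM in old and 1542, 986 and 541 CPM in old regenerating hepatocytes (4.47, SE 0.524, adjusted p 2.65e-05). In young mice it read 4.16, 3.74 and 3.08 CPM and then 4164, 1749 and 1366 CPM (9.37), a difference between the responses of -4.90 (SE 0.691, adjusted p 0.00677). Saa2, a serum amyloid A, read 82.8, 62.3 and 227 CPM in old and 2329, 1705 and 3202 CPM in old regenerating against 6.46, 4.18 and 3.47 CPM and 2685, 1333 and 1087 CPM in the young libraries (difference -4.22, SE 0.673). After PH the 2 ages thus overlapped in Saa2, while before it every old library lay above every young one. The quiescent groups were not tested against each other. The ages differ in the reads outside genes, in long noncoding RNA and in the source of the mice. Age, source and library composition therefore cannot be told apart in this or in any other difference between the ages given here. Saa1 (-3.02), Orm2 (-2.33) and Hp, encoding haptoglobin (-1.72), differed in the same direction. Hp was at 9043, 6642 and 4603 CPM in old hepatocytes already and at 10224, 7769 and 6072 CPM after PH (0.25, SE 0.298), against 923, 1117 and 941 CPM and 5471, 3372 and 2828 CPM in young ones. Fgb, a fibrinogen chain, read 8086, 8804 and 7119 CPM and then 9750, 8260 and 5421 CPM (-0.04, SE 0.278).

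In all, 331 genes responded more positively and 143 more negatively to PH in old than in young hepatocytes, of 14554. The balance turned with upper-quartile factors (93 higher and 153 lower) and without Old replicate 1 (317 higher and 508 lower). The counts ran from 42 without Young PH replicate 2 to 343 without Old replicate 3, and from 17 without Young replicate 1 to 508 without Old replicate 1, and of 39 genes with a different response named here 13 kept the call under every alternative tried: Lcn2, Saa1, Saa2, Mastl, Cenpa, Ncapd2, Blm, Npas2, Pitx3, Slc13a2, Hmcn2, Hist1h2ac and Hist1h2ae. Mastl, the kinase (Greatwall) that keeps a phosphatase off during mitosis, read 0.359, 0.463 and 0.694 CPM in old and 17.3, 18.4 and 17.2 CPM in old regenerating hepatocytes, against 7.29, 7.06 and 7.06 CPM and 25.4, 25.1 and 19.9 CPM in young ones (difference 3.39, SE 0.261, adjusted p 7.33e-05). Blm, a helicase of recombination, had the same shape, at 1.85, 1.78 and 1.39 CPM and 14.3, 9.46 and 8.47 CPM against 17.6, 12.5 and 16.9 CPM and 27.4, 25.6 and 22.0 CPM (2.01, SE 0.309). In both the larger rise in old hepatocytes began at a lower level and ended below the young one. Cenpa, the histone of the centromere (1.91), and the condensin subunit Ncapd2 (1.45) also rose more in old mice.

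Of 52 replication genes 3 rose less in old than in young hepatocytes, Lig1 (a DNA ligase, -1.77), Chaf1b (a histone chaperone, 2.39, 2.71 and 3.07 CPM and then 18.0, 8.39 and 7.88 CPM, against 0.613, 1.08 and 1.10 CPM and 18.4, 21.6 and 19.9 CPM, -2.35, SE 0.438) and Fen1 (the flap endonuclease, -0.95), and among the repair genes Brca1 did (1.85, 1.72 and 1.85 CPM, then 21.4, 14.2 and 11.8 CPM, against 1.19, 0.665 and 1.24 CPM and 42.1, 31.6 and 29.8 CPM, -1.93, SE 0.382). Of 53 histone genes of S phase 4 had a lower response in old mice by the test of the difference, 0 a higher one and 49 were not called. Within each age 17 rose in old and 49 in young hepatocytes, at medians of 1.69 and 4.25, or 1.27 in old ones with 11 genes that had no read pair in a group set to a floor of 3 read pairs. Hist1h2ac read 0.718, 0.727 and 0.984 CPM in old and 0.950, 0.666 and 0.685 CPM in old regenerating hepatocytes, against 1.39, 0.855 and 0.706 CPM and 9.02, 13 and 11.2 CPM in young ones (difference -3.58, SE 0.443, adjusted p 0.00332). Hist1h2ae followed it (-5.61, SE 0.718), and within old mice it was called lower without Old replicate 3 (-1.66). Most transcripts of these genes have no poly(A) tail and enter a poly(A) library in part. The count of 17 went down to 11 with limma-voom or without Old replicate 1 and to 5 in a fit of the 6 old libraries alone.

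**Figure D5:**
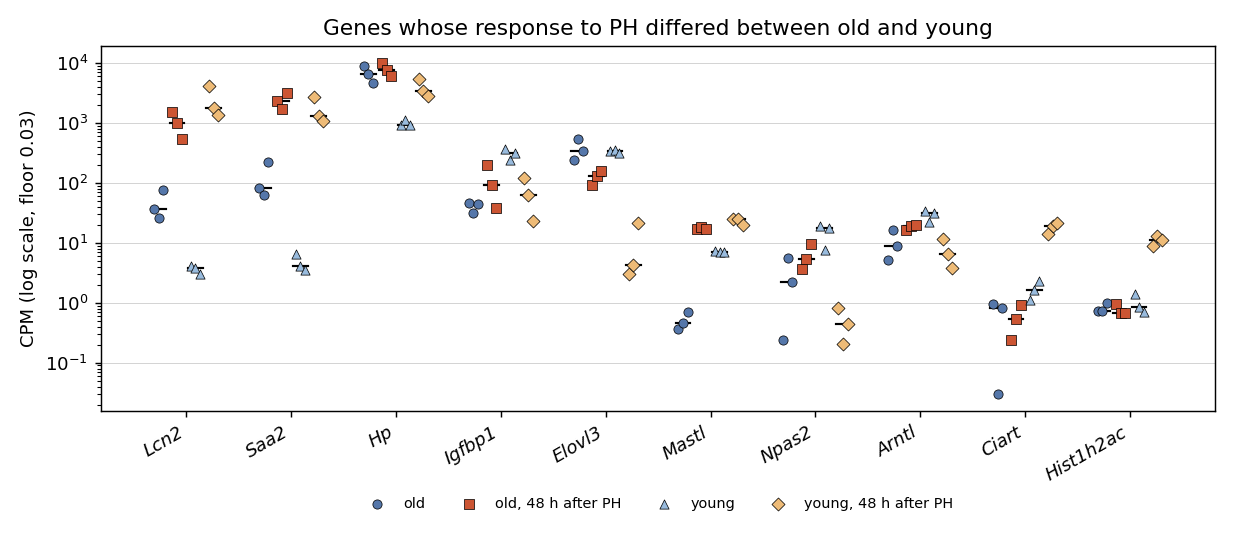
CPM (log axis, values under 0.03 drawn at 0.03) of 10 genes whose response to PH differed between the ages, in old (circles), old 48 h after PH (squares), young (triangles) and young 48 h after PH (diamonds) libraries, with group medians as bars. Lcn2, Saa2 and Hp start higher in old than in young libraries, Mastl starts lower, and Npas2, Arntl and Ciart move in young libraries while the old groups overlap.

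Of 21 clock genes 3 had a higher and 1 a lower response in old than in young hepatocytes, and 17 were not called. Npas2, an activator of the clock, read 0.239, 5.55 and 2.20 CPM in old and 3.61, 5.42 and 9.40 CPM in old regenerating hepatocytes (1.22, SE 0.669, adjusted p 0.168, but 2.24 and called without Old replicate 2), and 18.9, 7.51 and 17.7 CPM and 0.825, 0.206 and 0.449 CPM in young ones, a difference of 6.12 (SE 0.999, adjusted p 0.0135). Arntl, encoding BMAL1, overlapped in old mice (5.27, 16.6 and 8.91 CPM, then 16.3, 19 and 19.5 CPM, called at 1.30 without Old replicate 2) and fell in young ones (34.2, 22.1 and 32.0 CPM, then 11.7, 6.63 and 3.78 CPM, difference 2.84, SE 0.546). The repressor Ciart read 0.957, 0.00 and 0.810 CPM in old and 0.237, 0.533 and 0.930 CPM in old regenerating hepatocytes, where it was not called, and 1.10, 1.65 and 2.34 CPM and then 14.2, 18.9 and 21.6 CPM in young ones (difference -3.51, SE 0.842, adjusted p 0.0396), and Clock differed by 0.95 (SE 0.191). Per2 read 3.41, 5.22 and 7.41 CPM in old and 5.13, 9.59 and 5.78 CPM in old regenerating hepatocytes (0.35, SE 0.314). As the hour of tissue collection is not given, time of day and regeneration cannot be told apart in these genes.

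Other genes with a response of their own in old mice included Igfbp1, an insulin-repressed binding protein of IGF, at 46.7, 31.7 and 44.5 CPM and then 198, 91.2 and 38.8 CPM (1.41, SE 0.540, adjusted p 0.0540) with an overlap in Old PH replicate 3, without which it was called at 1.83, as it was at 1.38 with no filter on low counts, against a fall from 362, 245 and 320.0 CPM to 119, 62.2 and 23.4 CPM in young ones (difference 3.60, SE 0.767). Elovl3, which elongates fatty acids, fell in old mice from 245, 544 and 343 CPM to 92.5, 133 and 160.0 CPM and in young ones from 341, 352 and 316 CPM to 2.97, 4.35 and 21.2 CPM (difference 3.59, SE 0.764), and its call within old mice (-1.55, SE 0.532) was lost without Old replicate 2 (-1.25) or Old PH replicates 1 (-1.35), 2 (-1.56) or 3 (-1.73). Pitx3 (5.08), Loxl4 (3.26), Slc13a2 (3.12) and Hmcn2 (3.10) were, with Npas2, Igfbp1, Elovl3 and Mastl, the 8 largest positive differences among protein-coding genes with a mean of at least 10 CPM in some group. Among the splicing genes Hnrnph1 rose more in old mice, at 28.7, 29.0 and 37.3 CPM and then 95.9, 119 and 141 CPM against 39.1, 59.2 and 37.6 CPM and 63.1, 66.5 and 64.6 CPM (difference 1.39, SE 0.260). A more positive response in old mice was called in 5 others of the 35, Srsf3 (0.93) and Srsf5 (1.06) among them. Within old mice Srsf5 was not called, so its difference is not a larger rise. The angiopoietin gene Angpt2, of endothelial cells, fell in old mice (0.419, 1.32 and 0.810 CPM, then 0.142, 0.266 and 0.196 CPM, -2.03, SE 0.465) and rose in young ones (2.13, 2.82 and 2.01 CPM, then 4.70, 4.24 and 3.83 CPM, difference -2.91, SE 0.561). Endothelial markers fell beside it, and their part in this was not tested. Tert, the telomerase subunit, overlapped in old mice (5.15, 3.57 and 5.84 CPM, then 5.70, 6.17 and 7.54 CPM, 0.41, SE 0.181) and fell in young ones (difference 1.04, SE 0.245).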

How the data were processed

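RNA of hepatocytes isolated from 3 mice a group was selected for poly(A) and sequenced as paired reads of 150 bases. The authors trimmed reads with Trim Galore, aligned them to mm10 with STAR 2.5.0c, dropped duplicate reads by means of Picard and assigned the remaining pairs to genes in HTSeq, and the deposited table holds these raw counts, with no normalization. The annotation release and the strand setting of the counting are not given in the sources used here, so reads of overlapping and antisense genes cannot be told apart. Gene names came from GENCODE M21 (31011 of 31053 identifiers matched).

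Counts of the 12 young and old libraries were fitted together with edgeR 4.0.16 in R 4.3.3 (TMM, filterByExpr with a minimum count of 10, 14554 genes tested, quasi-likelihood test, 8 residual degrees of freedom), with contrasts for the old response, the young response and their difference, and p-values were adjusted by Benjamini-Hochberg over all tested genes. A log2 fold change is that fit's coefficient, and its standard error (SE) is its size divided by the square root of F. Adjusted p below come from that fit. Alternatives used DESeq2 1.42.0, limma-voom (limma 3.58.1), other factors and filters, and fits without each library. In simulated data only 191 (log2 1) or 198 (log2 2) tested genes were changed, in the Old PH libraries alone. There the fit recovered 49.7% of changes of log2 1 and 84.8% of changes of log2 2 in the old response, and 16.8% and 75.3% in the difference. In the real old response 37.6% of all genes were called, so these shares do not give the power of the real comparison. With 3 libraries a side the smallest exact permutation p is 0.1, so single-gene permutation tests were not used. Each library was 1 mouse. Precision rests on the number of libraries and on depth.

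Genes named were the 12 largest rises and falls among protein-coding genes with a mean of at least 10 CPM, key members of each of 63 lists, up to 4 members each way of each list by adjusted p, the 8 largest differences each way, genes of interest to the study and markers. Pttg1 was added after its value was seen. Members and lists were chosen with earlier results of these data known. Of the sample columns in the table used, 0 were left unmapped.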

Additional observations from a re-analysis of the deposited data

Results flagged for a closer look

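The following genes responded differently to PH in old and in young hepatocytes by the interaction test (edgeR adjusted p under 0.05). Each value is the log2 response of old minus that of young hepatocytes. Of the cell cycle genes Mastl stood at 3.39, Blm at 2.01, Cenpa at 1.91, Ncapd2 at 1.45, Chaf1b at -2.35, Brca1 at -1.93, Lig1 at -1.77 and Fen1 at -0.95. Both histone genes were lower in old mice, Hist1h2ac at -3.58 and Hist1h2ae at -5.61.

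Of the acute phase genes Lcn2 stood at -4.90, Saa2 at -4.22, Saa1 at -3.02, Orm2 at -2.33 and Hp at -1.72. Genes of macrophages and endothelium were C1qa at -2.70, C1qb at -2.98, Cd68 at -3.24, Itgb2 at -3.72, Vcam1 at -3.48, Siglec1 at -3.54, Tgfb1 at -1.59, Vim at -1.69 and Angpt2 at -2.91. The summed macrophage markers were 154 to 729 CPM in old and 42.3 to 126 CPM in old regenerating libraries, and 85.4 to 131 and 114 to 141 CPM in the young groups, so that old libraries 2 and 3 set this group apart. The part of these cells in the differences was not tested.

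Clock genes were Npas2 at 6.12, Arntl at 2.84, Clock at 0.95 and Ciart at -3.51. Splicing genes were Hnrnph1 at 1.39, Srsf3 at 0.93 and Srsf5 at 1.06. The others were Igfbp1 at 3.60, Elovl3 at 3.59, Pitx3 at 5.08, Loxl4 at 3.26, Slc13a2 at 3.12, Hmcn2 at 3.10, Tert at 1.04 and Cyp4b1 at -1.80.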

How the results depend on the processing

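The count of genes higher in old regenerating hepatocytes was 2178 with upper-quartile factors and 1931 in a fit of the 6 old libraries alone, against 3269. Leaving out 1 library at a time gave 2554 to 3016 higher and 1812 to 2561 lower genes. With upper-quartile factors 41% of the calls were higher, against 59.8%, and the median of all genes moved by -0.16. Genes with a more positive response in old mice numbered 626 with DESeq2, 93 with upper-quartile factors and 219 with a replicate block, against 331, and 42 to 343 without 1 library. Those with a more negative response numbered 479 with DESeq2 and 246 with no filter on low counts, against 143, and 17 to 508 without 1 library.

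Of the genes with a different response 37.8% were higher with upper-quartile factors (93 and 153) and 38.4% without Old replicate 1 (317 and 508), against 69.8%.

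The block on replicate number gave 3118 higher and 2130 lower genes. Same-numbered old libraries had deviations correlated at 0.015, 0.063 and -0.076, so the numbers were not taken to pair mice.

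Of 143 genes 11 lost their call in at least 1 alternative and 6 gained one (Arntl, Hist1h2ae, Igfbp1, Jun, Met and Npas2). Signs turned only in genes that were not called: Pttg1 at 0.01 (limma-voom and replicate block), Ihh at -0.05, Hnf4a at -0.06 and Srsf5 at -0.10 (upper-quartile factors), Srsf5 at -0.01 (6 old libraries alone) and Ciart at 0.72 (limma-voom). Without 1 library Pttg1 ran from -0.21 to 0.08, Jun from -0.06 to 0.70, Ihh from -0.29 to 0.40, Hnf4a from -0.05 to 0.18, C3 from -0.27 to 0.14, Pck1 from -0.96 to 0.09, Hp from -0.02 to 0.43, Fgb from -0.21 to 0.18, Srsf5 from -0.03 to 0.17, Ciart from -0.70 to 0.31 and Hist1h2ac from -0.25 to 0.03. The cause of these moves was not tested. Of 39 genes with a different response 26 lost that call in at least 1 alternative, and 0 turned. At this depth Gli3 and other genes under the filter could not be compared.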

Other observations

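Among lists not described in full above, 15 of 39 interferon-stimulated genes were called lower (38.5%, beside 15.1% of all genes), 1 higher and 23 not called, at a median of -0.55. That count was 7 without Old PH replicate 3 and 8 without Old replicate 3. Of 18 major urinary proteins, close paralogs between which reads may be split, 6 were lower (33.3%) and 0 higher (median -0.36). Of 21 genes of periportal hepatocytes 8 were lower (38.1%) and 0 higher (median -0.37). Of 24 pericentral genes 6 were lower (25%) and 5 higher (20.8%, near the 22.5% of all genes), at a median of -0.17.

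Of 24 endoplasmic reticulum chaperones 1 was higher and 4 lower (20.8% called, beside 37.6% of all genes, median -0.16). NRF2 targets of the oxidative stress response were near the share of all genes, with 6 higher and 4 lower of 26 (38.5% called, median 0.09), and of 13 metallothioneins and zinc transporters 3 were higher and 3 lower (46.2% called, median -0.02). Of 76 mitochondrial ribosomal proteins 18 were higher (23.7%, near the 22.5% of all genes) and 0 lower (median 0.24), a count that was 11 without Old replicate 2 or 3.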
